A study of Mus musculus with 5 samples.

Results

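The expression of 10 genes of pericytes and vascular smooth muscle cells (Pdgfrb, Cspg4, Notch3, Rgs5, Kcnj8, Abcc9, Acta2, Myl9, Tagln and Des) was examined in the injured mouse retina after optic nerve crush (ONC). The genes were taken by symbol from the 25655 gene symbols of the count table, and all 10 were found. Retinas came from wildtype C57BL/6 mice of both sexes, aged 8 to 10 weeks, and every mouse had ONC of the left eye. The mice received daily intraperitoneal injections of Sorbinil, an aldose reductase inhibitor, at 10 mg/kg or of the vehicle DMSO, starting the day before ONC. Total RNA of the whole injured retina was sequenced 7 days after ONC, in replicates 1, 2 and 3 of DMSO (n = 3) and replicates 1 and 3 of Sorbinil (n = 2), each from its own mouse as the study counts them. The study made this comparison to look for the regulation behind a delay of axon degeneration with Sorbinil. A further Sorbinil replicate, which the authors left out, was not analysed here. Uninjured retinas were not analysed here, so the values show the difference between treatments after injury and not the response to ONC itself.

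Pericytes sit on the outside of retinal capillaries under a shared basement membrane, and vascular smooth muscle cells wrap the arterioles. Endothelial cells release PDGF-B, which recruits and keeps pericytes through the receptor PDGFRβ, and endothelial Notch ligands signal to NOTCH3 on the vessel wall. Smooth muscle cells, and to a lesser extent pericytes near arterioles, use actin, myosin light chain and their partners to set vessel diameter, while a potassium channel opened at low ATP relaxes them. The retina is rich in pericytes, and their loss is an early lesion of diabetic retinopathy.

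Counts on genes totalled 56096541 to 90288552 per retina. Sorbinil replicate 1 stood apart from the other retinas, with 2668 of 14992 genes tested at least 2-fold below the DMSO mean, compared to 146 in Sorbinil replicate 3. The rod genes, which mark the most abundant cell of the retina, had a median log2 difference from the DMSO mean of 0.52 in Sorbinil replicate 1 and -0.32 in Sorbinil replicate 3. Mitochondrial genes took 1.94 to 2.66% of the counts with DMSO and 3.70 and 4.05% in Sorbinil replicates 1 and 3. A fit without mitochondrial and ribosomal RNA genes gave the same 3 calls among the 10 genes, with a median log2 fold change of -0.70. That fit left out only 13 genes, so it cannot show whether other differences between the retinas went with the mitochondrial share. Counts on 4 Y-linked genes (16268 to 17064 in all) were present in DMSO replicates 1 and 2 and Sorbinil replicate 1, while DMSO replicate 3 and Sorbinil replicate 3 had at most 4. The results of the 10 genes are therefore given with and without Sorbinil replicate 1. Since whole retina was sequenced, fewer cells of a type and less RNA per cell cannot be told apart.

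Contractile genes of smooth muscle are known to be controlled by serum response factor (SRF) through the CArG box. The sequences in front of Acta2 and Des are shown because these genes were called lower, and that of Myl9 because it held an exact box. RefSeq promoters were found for 8 of the 10 genes, but not for Tagln or Pdgfrb, which were therefore not searched. The 250 bases before the start were searched for the CArG box and for matches with 1 letter off. The definition of the box reads alike on both strands. Of 32851 RefSeq promoters, 1.47% held an exact CArG box, 18.6% held a match with at most 1 letter off and 2.96% held 2 or more such matches. Acta2 and Myl9 each held 2 matches. In Acta2 both were 1 letter off, beginning 84 and 34 bases before the start. In Myl9 an exact box began 161 bases before the start and a match with 1 letter off began 99 bases before it. In Des these letters were not in the window. Matches are in capitals, and positions are GRCm39, found by exact match of the RefSeq sequence. The start meant here is that of RefSeq, which differs from the ends of the GENCODE gene spans given below. The windows of Myl9 and Des lie inside those spans, and that of Acta2 lies partly inside. Acta2 is on the minus strand at chr19:34232774-34233023, Myl9 on the plus strand at chr2:156617134-156617383 and Des on the plus strand at chr1:75336686-75336935.
Acta2: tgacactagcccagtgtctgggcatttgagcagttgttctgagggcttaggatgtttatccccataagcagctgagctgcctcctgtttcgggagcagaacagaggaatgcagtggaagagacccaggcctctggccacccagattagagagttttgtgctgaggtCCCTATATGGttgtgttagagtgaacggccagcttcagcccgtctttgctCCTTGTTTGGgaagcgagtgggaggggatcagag
Myl9: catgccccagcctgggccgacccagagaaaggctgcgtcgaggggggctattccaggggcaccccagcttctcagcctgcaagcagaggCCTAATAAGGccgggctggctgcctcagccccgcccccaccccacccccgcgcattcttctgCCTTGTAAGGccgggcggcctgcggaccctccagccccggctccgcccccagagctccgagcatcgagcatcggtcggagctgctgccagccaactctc
Des: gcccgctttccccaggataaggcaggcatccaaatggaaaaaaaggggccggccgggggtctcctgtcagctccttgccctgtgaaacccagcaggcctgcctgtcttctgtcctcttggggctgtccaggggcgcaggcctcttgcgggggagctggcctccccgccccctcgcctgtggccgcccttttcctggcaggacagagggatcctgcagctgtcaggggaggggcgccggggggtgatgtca
Of the other genes, Cspg4 held 2 overlapping matches with 1 letter off, Kcnj8 held 1, and Rgs5, Abcc9 and Notch3 held none. A match is a stretch of letters and not a measured binding site.

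Levels are given in CPM, a gene's counts scaled to a library of fixed size after TMM scaling. Of the 4 contractile and cytoskeletal genes, Acta2, Tagln and Des were called lower with Sorbinil, each with both Sorbinil retinas under all DMSO retinas, and Myl9 was not. Rgs5 also had both Sorbinil retinas under all DMSO retinas but was not called. Myl9, the receptors and surface proteins, and the potassium channel subunits were below the DMSO retinas in Sorbinil replicate 1 alone. Genes were called by the threshold of the study in edgeR's quasi-likelihood test over all genes tested, which asks for a raw p (not adjusted for the number of genes) no higher than 0.1 together with a 2-fold or larger change. The p-values weigh the difference between the groups against the spread between these retinas, which the test estimates partly from all genes tested. With so few retinas that spread is poorly known. By this rule 3 of the 10 genes were called lower, where 1.35% of all genes tested were, and 0 were called higher, where 0.36% were. Both Sorbinil retinas lay below every DMSO retina for 4 genes (Acta2, Tagln, Des and Rgs5), compared to 10.5% of all genes, and above every DMSO retina for 0 genes, compared to 12.8%. The fitted change was negative for all 10 genes, as it was for 51% of all genes. The median log2 fold change was -0.70 over the 10 genes and -0.01 over all genes tested. In edgeR's quasi-likelihood fit of group alone to all retinas, 0 of the 10 and 0 of all genes had an adjusted p under 0.05. In the same fit 2 of the 10 and 751 of all genes had a raw p under 0.05. With the replicate number as a block, 4 genes had an adjusted p under 0.05, among them 0 of the 10. DESeq2's Wald test gave 21 genes and edgeR's likelihood ratio test 14 genes with an adjusted p under 0.05, among them 0 of the 10 by either tool.

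These calls rested on Sorbinil replicate 1. Without it 0 of the 10 genes were called lower, where 0.912% of all genes were, and the median log2 fold change was -0.11. Without Sorbinil replicate 3 all 10 were called lower, where 17.4% of all genes were, and the median was -1.64. In Sorbinil replicate 1 all 10 genes were at least 2-fold below the DMSO mean and below every DMSO retina. Of all genes tested, 41.7% lay below every DMSO retina there, and fewer (2668 genes) were at least 2-fold below the DMSO mean. In Sorbinil replicate 3, 0 genes were at least 2-fold lower and 4 were below every DMSO retina, compared to 29.1% of all genes tested.

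**Figure D1:**
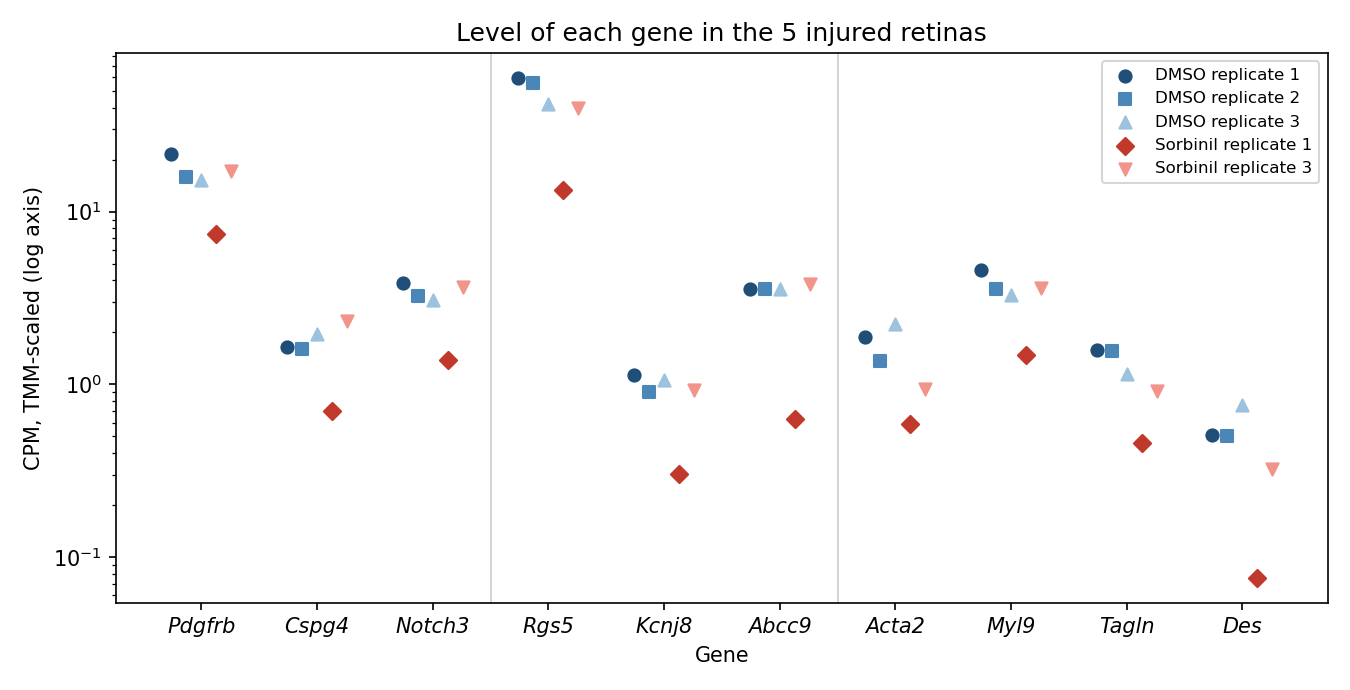
Level of each of the 10 genes in CPM (log axis), with 1 point for each retina (blue, 3 DMSO retinas, and red, 2 Sorbinil retinas). Sorbinil replicate 1 is the lowest point for every gene, and Sorbinil replicate 3 lies below the DMSO points for Rgs5, Acta2, Tagln and Des.

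Among the receptors and surface proteins, none was called. Pdgfrb (ENSMUSG00000024620), the PDGF-B receptor of pericytes, spans bases 61178212 to 61218133 of chromosome 18 (plus strand, GRCm39, GENCODE vM39, as for all genes here). It measured 21.4, 15.9 and 15.2 CPM in DMSO replicates 1, 2 and 3, 7.46 CPM in Sorbinil replicate 1 and 17.3 CPM in Sorbinil replicate 3. Sorbinil replicate 3 thus lay within the DMSO range and Sorbinil replicate 1 below it. Mean levels were 17.5 ± 3.4 CPM (SD, n = 3) for DMSO against 12.4 ± 7.0 CPM (SD, n = 2) for Sorbinil. The log2 fold change was -0.50 (standard error, SE, 0.38 and raw p 0.238), and it was -0.01 without Sorbinil replicate 1.

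Cspg4 (ENSMUSG00000032911), which encodes the proteoglycan NG2 of pericytes and of oligodendrocyte precursors, spans bases 56772317 to 56807187 of chromosome 9 (plus strand). Its levels were 1.65, 1.60 and 1.96 CPM in the DMSO retinas and 0.704 and 2.34 CPM in Sorbinil replicates 1 and 3. The Sorbinil retinas held both the lowest and the highest value of the 5. The log2 fold change was -0.18 (SE 0.51, raw p 0.738), and without Sorbinil replicate 1 its direction turned, at 0.44. Of the genes of the oligodendrocyte lineage, the other cells with NG2, Olig2 and Mog were at 0 counts in every retina, and the 7 genes together measured 28.7 to 32.7 CPM with DMSO and 33.9 to 34.6 CPM with Sorbinil, nearly all of it Mbp.

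Notch3 (ENSMUSG00000038146), the Notch receptor of mural cells, spans bases 32339794 to 32385893 of chromosome 17 (minus strand). The DMSO retinas measured 3.84, 3.23 and 3.06 CPM, Sorbinil replicate 1 measured 1.39 CPM and Sorbinil replicate 3 measured 3.64 CPM. Sorbinil replicate 3 lay inside the DMSO range. The log2 fold change was -0.42 (SE 0.43, raw p 0.368) and turned to 0.12 without Sorbinil replicate 1.

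Kcnj8 and Abcc9 encode the pore (Kir6.1) and the regulatory subunit (SUR2) of the vascular ATP-sensitive potassium channel, and lie side by side on the minus strand of chromosome 6, 15.8 kb apart. Kcnj8 (ENSMUSG00000030247, from 142510563 to 142517830) measured 1.13, 0.901 and 1.06 CPM with DMSO, 0.304 CPM in Sorbinil replicate 1 (16 counts) and 0.928 CPM in Sorbinil replicate 3 (63 counts), so that Sorbinil replicate 3 was within the DMSO range. Its log2 fold change was -0.72 (SE 0.51, raw p 0.205). Abcc9 (ENSMUSG00000030249, from 142533588 to 142648571) was the most even gene of the 10 among the DMSO retinas, at 3.55, 3.57 and 3.54 CPM, and measured 0.628 CPM in Sorbinil replicate 1 and 3.79 CPM in Sorbinil replicate 3. The log2 difference from the DMSO mean was -2.48 in Sorbinil replicate 1, while Sorbinil replicate 3 was the highest of the 5 retinas (0.09). Its log2 fold change of -0.68 (SE 0.68, raw p 0.361) turned to 0.10 without Sorbinil replicate 1. The value of Kcnj8 without that retina was -0.14.

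Rgs5 (ENSMUSG00000026678), a regulator of G protein signaling that is abundant in pericytes, spans bases 169483036 to 169524887 of chromosome 1 (plus strand). It measured 59.4, 55.2 and 41.7 CPM with DMSO and 13.3 and 39.95 CPM in Sorbinil replicates 1 and 3. Both Sorbinil retinas were below every DMSO retina, although Sorbinil replicate 3 was below DMSO replicate 3 by little. Mean levels were 52.1 ± 9.2 CPM (SD, n = 3) for DMSO against 26.7 ± 18.8 CPM (SD, n = 2) for Sorbinil. With a log2 fold change of -0.97 (SE 0.46, raw p 0.0848, adjusted p 0.758) Rgs5 missed the limit of 2-fold. It was -0.37 without Sorbinil replicate 1 and -1.97 (raw p 8.34e-05) without Sorbinil replicate 3.

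**Figure D2:**
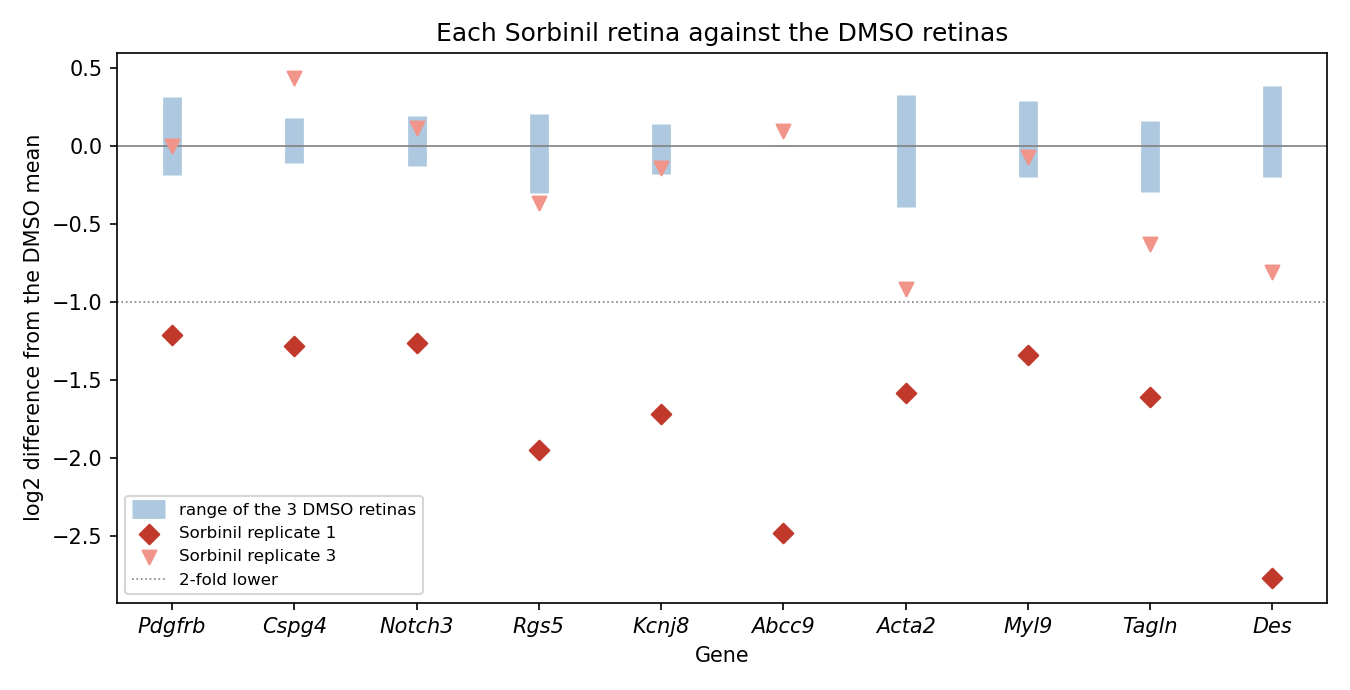
Difference of each Sorbinil retina from the mean of the 3 DMSO retinas, on the log2(CPM + 0.01) scale, for the 10 genes. Bars give the range of the DMSO retinas, and the dotted line marks a 2-fold lower level. Sorbinil replicate 1 is under the dotted line for all 10 genes, and Sorbinil replicate 3 leaves the DMSO bars downwards for Rgs5, Acta2, Tagln and Des.

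Acta2 (ENSMUSG00000035783), which encodes smooth muscle α-actin, spans bases 34217737 to 34232990 of chromosome 19 (minus strand). It measured 1.87, 1.36 and 2.25 CPM with DMSO (181, 109 and 125 counts), 0.590 CPM in Sorbinil replicate 1 (31 counts) and 0.943 CPM in Sorbinil replicate 3 (64 counts), so the groups did not overlap. Mean levels were 1.83 ± 0.44 CPM (SD, n = 3) for DMSO against 0.766 ± 0.25 CPM (SD, n = 2) for Sorbinil. Its log2 fold change was -1.24 (SE 0.38, raw p 0.0176, adjusted p 0.758). Of the 3 called genes, Acta2 had the smallest difference between the Sorbinil retinas, with -1.59 and -0.92 against the DMSO mean in replicates 1 and 3. It was called in each fit that left out a DMSO retina, and without Sorbinil replicate 1 it was -0.94 (SE 0.38, raw p 0.0464), just short of 2-fold.

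Acta2 shares most of its coding sequence with Acta1, Actc1 and Actg2, so reads on common stretches could have been split among them. Actg2 had 0 counts in all 5 retinas. Acta1 measured 1.04 to 1.19 CPM with DMSO and 0.609 and 1.27 CPM with Sorbinil, and Actc1 measured 0.876 to 1.41 CPM and 0.285 and 1.05 CPM. Neither was called, nor was any of the 13 close paralogs tested. In Sorbinil replicate 3, where Acta2 was below the DMSO retinas, Acta1 and Actc1 were not.

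Tagln (ENSMUSG00000032085), which encodes the actin-binding protein transgelin (SM22α), spans bases 45840909 to 45847404 of chromosome 9 (minus strand). Its level was 1.58, 1.56 and 1.15 CPM with DMSO (153, 125 and 64 counts), 0.457 CPM in Sorbinil replicate 1 (24 counts) and 0.913 CPM in Sorbinil replicate 3 (62 counts). Both Sorbinil retinas were below every DMSO retina. The log2 fold change was -1.06 (SE 0.40, raw p 0.0417, adjusted p 0.758). Tagln was not called without DMSO replicate 1 (-0.98), without DMSO replicate 2 (-0.99), without Sorbinil replicate 1 (-0.64) or with the replicate number as a block (-1.05, raw p 0.187). A long noncoding RNA gene on the opposite strand covers 60.7% of its exon bases. Pcsk7, also on the opposite strand, covers 6.0% of them, had 656 to 1183 counts and was not called (0.11, raw p 0.599). Stambpl1 covers 9.3% of Acta2 and was not called (-0.29, raw p 0.557), and a long noncoding RNA gene covers 5.6% of Des. The libraries were stranded, but no source used here says whether strand entered the counting, so reads of these partners cannot be told apart here.

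Des (ENSMUSG00000026208), which encodes the intermediate filament desmin of muscle and pericytes, spans bases 75320511 to 75345223 of chromosome 1 (plus strand). It had 49, 40 and 42 counts with DMSO, 22 counts in Sorbinil replicate 3 and 4 counts in Sorbinil replicate 1, where the exact 95% Poisson interval runs from 1.09 to 10.2 counts and covers counting error only. These were 0.507, 0.5004 and 0.756 CPM, 0.324 CPM and 0.0761 CPM, so Des was the least abundant of the 10 genes and the groups did not overlap. The log2 fold change was -1.496 (SE 0.63, raw p 0.0562, adjusted p 0.758), and it was -0.83 and not called without Sorbinil replicate 1. Leaving out DMSO replicate 3 also ended the call, at -1.28. Of skeletal muscle, a tissue beside the eye that also holds desmin, 10 marker genes together measured 2.67 to 3.65 CPM with DMSO and 3.41 and 4.38 CPM in Sorbinil replicates 1 and 3. Most of this was Acta1 and Mylpf, and 0 of its 4 genes tested were called. Each of the other muscle genes had at most 21 counts in any retina, where Des had 4 to 49. The part of such tissue in the Des values was not tested.

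Myl9 (ENSMUSG00000067818), the regulatory myosin light chain of smooth muscle, spans bases 156617084 to 156623579 of chromosome 2 (plus strand). Tagln, which was called, had no promoter to search. Among the 8 promoters searched, only that of Myl9 held an exact CArG box, and Myl9 was not called. It measured 4.602, 3.57 and 3.29 CPM with DMSO, 1.48 CPM in Sorbinil replicate 1 and 3.60 CPM in Sorbinil replicate 3, which was within the DMSO range. Its log2 fold change was -0.59 (SE 0.42, raw p 0.213), and -0.08 without Sorbinil replicate 1. For Rgs5, Acta2, Tagln and Des the exact permutation test over all 10 groupings of the 5 retinas gave p = 0.1, the lowest value these group sizes can reach, and for the other genes p-values from 0.2 to 0.7 (two-sided, on the log2(CPM + 0.01) scale).

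**Figure D3:**
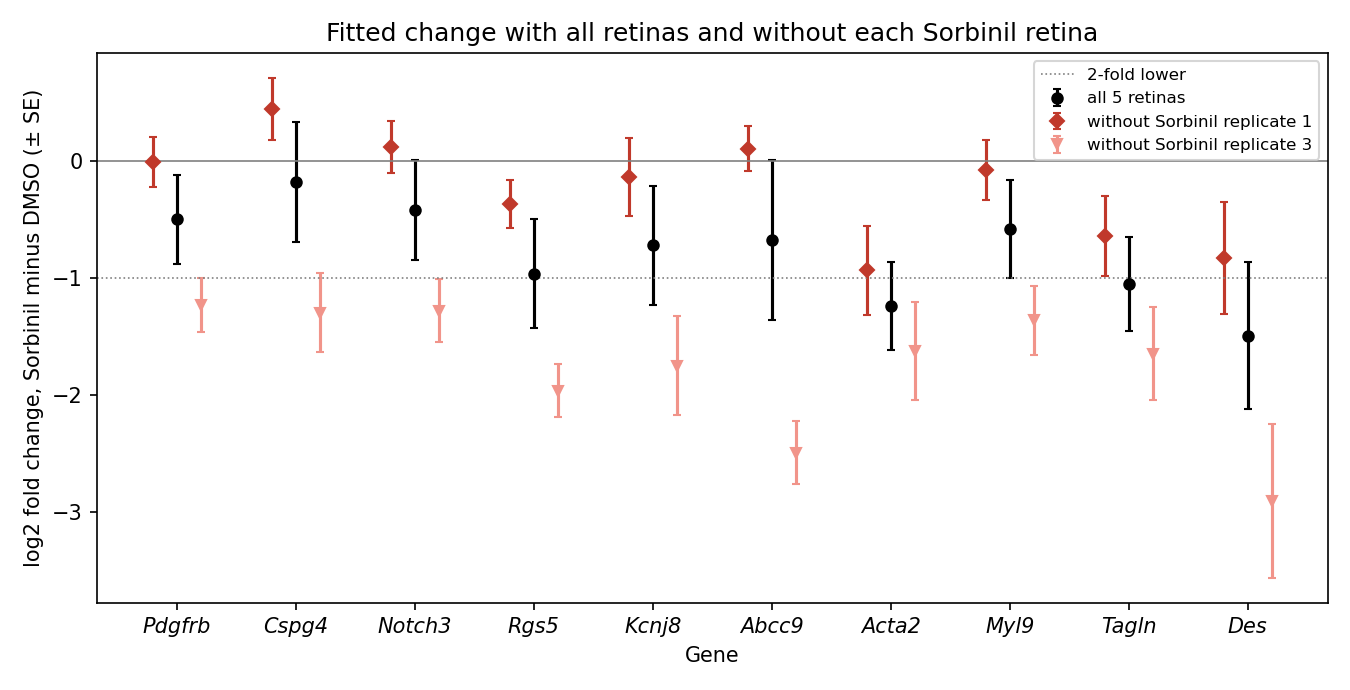
Log2 fold change of Sorbinil against DMSO with its standard error (edgeR's quasi-likelihood fit) for the 10 genes, with all 5 retinas (black), without Sorbinil replicate 1 (dark red) and without Sorbinil replicate 3 (light red). Without Sorbinil replicate 1, Acta2, Tagln and Des give the lowest values, at -0.94, -0.64 and -0.83, and none reaches the dotted line of a 2-fold change.

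Ordered by role, the contractile and cytoskeletal genes (Acta2, Myl9, Tagln and Des) had a median log2 fold change of -1.15, the channel subunits with Rgs5 had -0.72 and the receptors and surface proteins had -0.42. In Sorbinil replicate 3 these medians against the DMSO mean were -0.72, -0.14 and 0.12, and in Sorbinil replicate 1 they were -1.60, -1.95 and -1.27. The lowest group was thus the contractile genes in Sorbinil replicate 3, and the channel subunits with Rgs5 in Sorbinil replicate 1. The difference between the roles was not tested.

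Per kilobase of exon, Rgs5 had the highest level in DMSO retinas, at 8.47 ± 1.5 CPM per kb (SD, n = 3). Pdgfrb followed with 2.16 ± 0.42 CPM per kb and Myl9 with 1.67 ± 0.30 CPM per kb, and their ranges over the DMSO retinas overlapped. Tagln, Acta2 and Notch3 (0.701, 0.567 and 0.375 CPM per kb) likewise overlapped from each to the next. Abcc9 and Kcnj8 were close, at 0.306 and 0.273 CPM per kb, but their DMSO ranges did not overlap. Cspg4 and Des were lowest, at 0.145 and 0.114 CPM per kb, with ranges that overlapped. Rgs5 and Pdgfrb held most of the counts of the 10 genes in every retina, and none of the 3 called genes was above 181 counts.

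The retinas with and without counts on Y-linked genes each held DMSO and Sorbinil retinas, so the change could be read within each, with 2 DMSO retinas against Sorbinil replicate 1 and DMSO replicate 3 against Sorbinil replicate 3. Acta2 was lower by a like amount in both, at -1.42 with and -1.25 without Y-linked counts on the log2 scale. Des (-2.58 and -1.20) and Tagln (-1.76 and -0.33) were also lower in both. For Rgs5 the values were -2.10 and -0.06, and for Kcnj8 -1.70 and -0.19. Pdgfrb, Cspg4, Abcc9, Myl9 and Notch3 were between -2.48 and -1.20 with Y-linked counts and between 0.10 and 0.26 without them. Each comparison rests on 1 Sorbinil retina and carries no test. With a term for Y-linked counts in the fit, Rgs5 was called as well (-1.18, raw p 0.083), beside Acta2, Tagln and Des.

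Among the PDGF and Notch genes, the endothelial ligands Pdgfb and Dll4 were called lower. Pdgfb, the endothelial ligand of PDGFRβ, measured 3.01, 2.77 and 1.51 CPM with DMSO and 0.780 and 1.296 CPM in Sorbinil replicates 1 and 3. Its log2 fold change was -1.22 (SE 0.43, raw p 0.0304, adjusted p 0.758), and -0.90 and not called without Sorbinil replicate 1. Of the 5 PDGF genes (4 ligands and the receptor Pdgfra) it was the only one called. Dll4, an endothelial Notch ligand, measured 0.827, 0.888 and 0.558 CPM with DMSO and 0.247 and 0.398 CPM with Sorbinil, with a log2 fold change of -1.22 (SE 0.41, raw p 0.0261), and -0.93 and not called without Sorbinil replicate 1. Both Sorbinil retinas were below every DMSO retina for Pdgfb and for Dll4. Counting these, that held for 2 of the 5 PDGF genes and 4 of the 13 Notch genes, compared to 10.5% of all genes tested. Dll4 was the only one called of 13 Notch ligands, other receptors and target genes, whose median was -0.09, or 0.04 without Sorbinil replicate 1. The more abundant Notch ligands Jag1, Jag2 and Dll1 were not called. Jag1, the most abundant of them, measured 132, 133 and 128 CPM with DMSO and 235 and 110 CPM in Sorbinil replicates 1 and 3, so the Sorbinil retinas lay on either side of the DMSO retinas. Its log2 fold change was 0.40 (raw p 0.248), and -0.24 (raw p 0.0571) without Sorbinil replicate 1. Jag2 was at -0.04 and Dll1 at 0.03. Whether ligand and receptor differed in their change was not tested.

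The lists of other pericyte and other smooth muscle genes each had 1 gene called lower, where 1.35% of all genes tested were. Each list had 4 genes with both Sorbinil retinas below every DMSO retina, compared to 10.5% of all genes tested. Both Sorbinil retinas were above every DMSO retina for 0 and 1 of their genes, compared to 12.8%. Of 19 pericyte genes tested beside the 10, Ecm2 was called lower (-1.21, raw p 0.089, 5 counts in Sorbinil replicate 1, and -0.70 and not called without that retina), 18 had a negative log2 fold change and the median was -0.41, which turned to 0.08 without that retina. Of 12 smooth muscle genes tested, the calcium-binding gene Casq2 was called lower (-1.17, raw p 0.028, and -1.06 without Sorbinil replicate 1) and the median was -0.21, or 0.05 without that retina. Myh11, the smooth muscle myosin heavy chain and the most specific of these, measured 0.648 to 0.913 CPM with DMSO and 0.304 and 0.604 CPM with Sorbinil and was not called (-0.79, raw p 0.108, and -0.39 without Sorbinil replicate 1). Cnn1 and Actg2, which mark mature smooth muscle elsewhere, had at most 2 counts in any retina. Of 6 genes of SRF and its cofactors none was called, and Srf itself was level, at 14.9 to 16.5 CPM with DMSO and 16.5 and 14.9 CPM in Sorbinil replicates 1 and 3. The subunits Kcnj11 and Abcc8 of the related channel of neurons and beta cells were not called (-0.47 and -0.41, and 0.11 and 0.16 without Sorbinil replicate 1). In Sorbinil replicate 3 the medians of the other pericyte, other smooth muscle, PDGF, Notch and channel lists lay between 0.03 and 0.13.

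The endothelial list was lower too. Of its 15 genes, all tested, 10 were called lower, where 1.35% of all genes tested were. Both Sorbinil retinas lay below every DMSO retina for 12 of them, compared to 10.5% of all genes tested. The median log2 fold change was -1.62. Ly6c1 (-2.05), the tight junction gene Cldn5 (-1.62) and the transcription factor gene Erg (-2.24) had the smallest raw p-values, at 0.00312, 0.00934 and 0.00948, and were at -1.65, -1.15 and -1.65 without Sorbinil replicate 1. The endothelial genes had median differences from the DMSO mean of -2.28 and -0.92 in Sorbinil replicates 1 and 3, while the median of the 10 mural genes was -1.60 and -0.11. Without Sorbinil replicate 1, the median log2 fold change was -0.93 for the endothelial genes and -0.11 for the mural genes. The summed endothelial level was 329 to 512 CPM with DMSO and 169 and 425 CPM in Sorbinil replicates 1 and 3, and that of the 10 mural genes 74.0 to 99.6 CPM and 26.4 and 73.7 CPM. Kdr and Flt1 held most of the endothelial sum, which in Sorbinil replicate 3 was within the DMSO range. No marker of either list was at 0. The difference between the lists was not tested.

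Genes of other cells also stood low in Sorbinil replicate 1. Its medians were -1.45 for Müller glia, -1.51 for astrocytes, -0.95 for microglia and -1.39 for retinal ganglion cells, with 7, 5, 8 and 9 genes tested and 0 called in each list. In Sorbinil replicate 3 the same medians were 0.01, 0.12, -0.10 and -0.22, each within the DMSO range. With all 5 retinas, the median log2 fold changes of these lists were -0.56, -0.34, -0.53 and -0.72, and every gene tested in them was negative. The medians of the rod, fibroblast, skeletal muscle, blood and oligodendrocyte lists were positive, at 0.156, 0.535, 0.261, 0.124 and 0.124. The summed level of 7 Müller glia genes was 5296 to 6153 CPM with DMSO and 1968 and 5543 CPM in Sorbinil replicates 1 and 3. Fibroblast genes differed between the Sorbinil retinas, with medians of -1.45 and 1.26, and 4 were called higher without Sorbinil replicate 1, where 0.521% of all genes were. With all 5 retinas, 0 of the 6 fibroblast genes tested were called. The pigment epithelium list ran from 73.2 to 189 CPM with DMSO and was 65.2 and 116 CPM with Sorbinil. The 9 rod genes and the 3 blood genes tested (of 5) gave 0 calls with all 5 retinas, and 1 blood gene was called higher without Sorbinil replicate 1. The part of these cells in the values of the 10 mural genes was not tested.

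**Figure D4:**
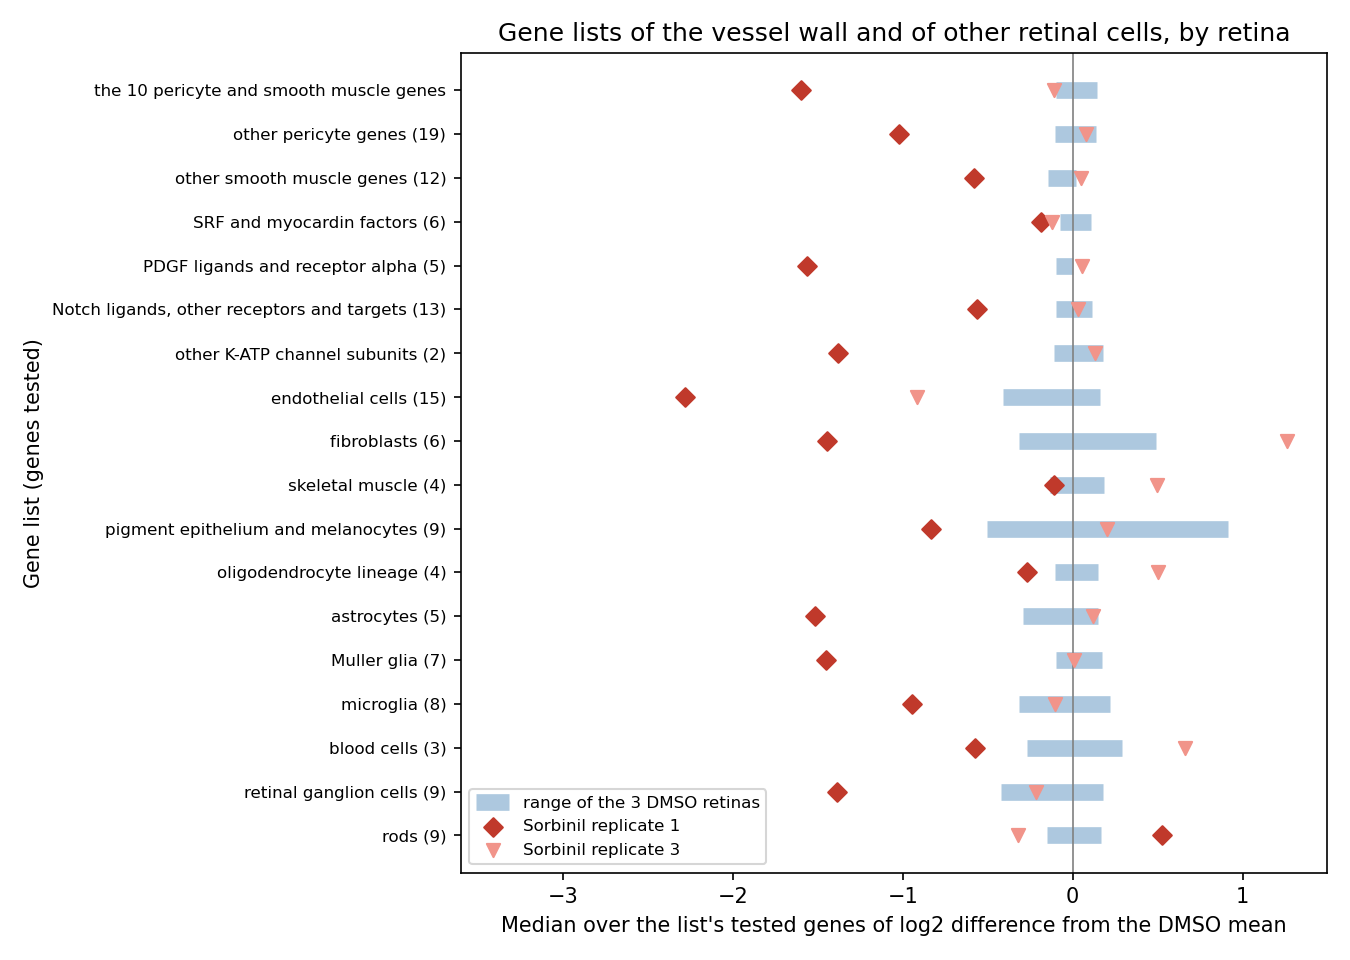
Median log2 difference from the DMSO mean over the tested genes of each list (number in brackets) in Sorbinil replicates 1 and 3, with bars for the range of the 3 DMSO retinas. The 10 mural genes are at -1.60 and -0.11, the latter barely under their lowest DMSO median (-0.098). The endothelial list lies outside its DMSO bar in both Sorbinil retinas, at -2.28 and -0.92. So do some other lists, such as the rods at 0.52 and -0.32.

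The profile of the 10 genes over the 5 retinas, taken as the median of each gene's log2 CPM minus its own mean, was 0.54, 0.19 and 0.25 in the DMSO retinas and -1.14 and 0.22 in Sorbinil replicates 1 and 3. Of 13046 other genes with a mean of at least 1 CPM, those with the smallest root mean square distance to it were Slc41a3 (0.027), Crtap (0.040), Begain (0.041), Ccdc9b (0.042) and Pcbd1 (0.044), compared to a median of 0.628 over these genes. None of the 5 was in the pericyte or smooth muscle lists, and none was called. Among the 10 genes, Myl9 (0.085), Notch3 (0.115), Kcnj8 (0.120) and Pdgfrb (0.121) were nearest to the shared profile, and Des (0.592), Abcc9 (0.448) and Acta2 (0.387) were farthest from it.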

How the data were processed

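Injured retinas of 3 DMSO and 2 Sorbinil mice were compared. The authors trimmed adaptors, mapped reads to GRCm39 in CLC Genomics Workbench, left out a Sorbinil replicate after PCA and deposited a table of raw counts for each gene. The annotation, the handling of shared reads and the use of strand in counting are not given in the sources used here. The deposited counts were assigned to retinas by column name, with 0 columns left over. Replicates of a group stood apart by more than counting noise (a chi-square of 24.6 or more for each degree of freedom).

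Counts were filtered (edgeR 4.0.16 filterByExpr, minimum count 10, R 4.3.3), which left 14992 genes and all 10 members of the gene list, scaled by TMM and tested by glmQLFit and glmQLFTest with Benjamini-Hochberg adjustment over all genes tested. The threshold was that of the study. Single-retina differences and permutation tests used log2(CPM + 0.01), where the CPM divide counts by the TMM-scaled library size. Log2 fold changes are Sorbinil minus DMSO, and their standard error is the change divided by the square root of F. Positions and exon lengths are from GENCODE vM39, and promoters from RefSeq.

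The genes and lists were chosen with earlier results of these data known, so no list gets a test of its own. Besides the 10 genes, the genes named are the called genes of each list (at most 3, by unadjusted p-value), close paralogs, and the 5 genes with the nearest profile. Myh11, Srf, Cnn1, Kcnj11, Abcc8, Mbp, Olig2, Mog, Mylpf, Kdr, Flt1, Jag1, Jag2 and Dll1 are also named, as genes that define their list or lead its counts, with Stambpl1 and Pcsk7 as overlapping genes, chosen after their values were seen. The alternatives were other scalings, filters and tests (DESeq2 1.42.0), a replicate block, omission of single retinas and other thresholds. The term for Y-linked counts was chosen after seeing the data.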

Additional observations from a re-analysis of the deposited data

Results flagged for a closer look

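For 5 of the 10 genes, the Sorbinil retina lay below the DMSO retinas among the retinas with counts on Y-linked genes and above the DMSO retina among those without. In the retinas without Y-linked counts, the log2 difference of Sorbinil from DMSO was 0.186 for Pdgfrb, 0.255 for Cspg4, 0.095 for Abcc9, 0.126 for Myl9 and 0.249 for Notch3. The difference was not tested, since each side holds 1 Sorbinil retina, and the side with Y-linked counts holds Sorbinil replicate 1, which was the lowest retina for all 10 genes.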

How the results depend on the processing

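With 2 retinas against 3 no permutation p-value can fall under 0.1, and genes such as Des, with 4 counts in a retina, are limited by counting. The 3 genes called lower became 0 at an adjusted p-value of at most 0.1. Leaving out each retina in turn gave medians of -1.64 to -0.11, each end without a Sorbinil retina. In those fits the lone Sorbinil retina is assumed to vary like the DMSO retinas. Without Sorbinil replicate 1, Cspg4 (0.444), Abcc9 (0.103) and Notch3 (0.117) turned direction, and without Sorbinil replicate 3 they were at -1.298, -2.496 and -1.281.

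The median of the 10 genes moved to -1.025 with the replicate block and to -1.051 with the term for Y-linked counts. Retinas of the same replicate number were alike in their Y-linked counts, which were present in both replicates 1 and nearly absent in both replicates 3. Any further pairing is not given in the sources used here. The log2 difference of replicate 1 from replicate 3 correlated at -0.15 between DMSO and Sorbinil over 14992 genes. This value involves Sorbinil replicate 1, which stood apart from the other retinas, so it cannot settle whether retinas were paired. With the block, which leaves DMSO replicate 2 out of the comparison, Rgs5 (-1.11) was called and Tagln was not, and Acta2 and Des were called as before. The other scalings and tests called Acta2, Tagln and Des, and the strict filter removed Des before testing.

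Over all genes, 203 were called lower and 54 higher. These counts became 119 and 29 with at least 10 counts in every retina, and 129 lower with raw p-values limited to 0.05. Higher genes numbered 33 with library size only and 115 with no filter. With no fold limit there were 649 lower and 1047 higher, and at an adjusted p-value of at most 0.1 there were 0 and 0. Leaving out each retina gave 129 to 2656 lower and 35 to 247 higher. The strict filter tests fewer genes, and for the other shifts the cause was not tested.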
